A study of Mus musculus with 12 samples.

Results

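The 47 genes described here make, break down, export or sense sphingolipids, and they were followed through the ileal and colonic mucosa of mice with and without the manganese transporter gene Slc39a8 in the intestinal epithelium. They were chosen by name, as the rows of the deposited gene table whose Ensembl identifiers carry the listed symbols in GENCODE M21, and 47 of the 53715 genes of the table were found this way. RNA was sequenced from the mucosa of 8-week-old male C57BL/6J mice in 12 libraries, with 3 libraries for each of 4 groups. Control mice carried the label Slc39a8-fl/fl, a homozygous floxed allele without Cre, in ileum and in colon, although the methods of the study describe controls as a mixture that also held wild-type and Vil-Cre mice. KO mice carried Slc39a8-fl/fl:Villin-Cre, so that Cre was expressed from the Villin promoter in intestinal epithelial cells and the floxed allele was shared by both labelled genotypes. The mucosa holds other cells too, and a gene can be lower in such a sample because fewer cells of a type were collected or because each held less RNA, which cannot be told apart here.

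Sphingolipid synthesis starts in the endoplasmic reticulum, where serine palmitoyltransferase joins serine to an acyl-CoA, and it leads through dihydroceramide to ceramide. Ceramide is the branching point: it is turned into glucosylceramide, galactosylceramide, sphingomyelin or ceramide 1-phosphate, or is cut by a ceramidase into sphingosine, which kinases phosphorylate to sphingosine 1-phosphate, a signal read by receptors at the cell surface. In the gut the pathway also has a digestive side, since alkaline sphingomyelinase and neutral ceramidase sit on the brush border of the small intestine and act on dietary sphingomyelin, while the colonic epithelium is known for ceramides with hydroxylated chains.

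Upstream windows of 5 members are shown because these genes carry the tissue contrast described below, Acer1, Sptssb and Ugt8a being higher in colon and Asah2 and Enpp7 higher in ileum. Each line gives bases 250 to 51 before the RefSeq start of the gene in GRCm38.p6, on the strand of the gene and 5′ to 3′, and 42 of the 47 members had such an entry. Acer1 is read from chr17:56982177-56982376 on the minus strand, Sptssb from chr3:69859945-69860144 and Ugt8a from chr3:125938703-125938902, both also on the minus strand. Asah2 is read from chr19:32103191-32103390 on the minus strand and Enpp7 from chr11:118987931-118988130 on the plus strand. None of the 5 windows holds an exon of a GENCODE M21 gene. That of Asah2 lies inside the M21 gene, 4821 bases downstream of its annotated start, since the RefSeq start is a later one. Capitals mark matches, on either strand, to 4 short motifs of factors known in the intestinal epithelium. The letters searched were TTTATG for the motif of Cdx-type factors. For Gata-type factors they were AGATAA, and for HNF1-type factors GTTAAT. The HNF4-type motif was searched as CAAAGT, and matches to different motifs did not overlap.
Acer1: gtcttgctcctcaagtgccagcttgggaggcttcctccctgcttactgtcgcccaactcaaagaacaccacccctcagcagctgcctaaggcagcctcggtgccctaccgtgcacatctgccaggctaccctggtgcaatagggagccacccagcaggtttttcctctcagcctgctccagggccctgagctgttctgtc
Sptssb: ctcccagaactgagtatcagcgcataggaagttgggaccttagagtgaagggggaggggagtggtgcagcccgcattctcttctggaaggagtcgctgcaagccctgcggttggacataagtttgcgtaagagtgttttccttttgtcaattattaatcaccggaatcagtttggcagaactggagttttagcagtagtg
Ugt8a: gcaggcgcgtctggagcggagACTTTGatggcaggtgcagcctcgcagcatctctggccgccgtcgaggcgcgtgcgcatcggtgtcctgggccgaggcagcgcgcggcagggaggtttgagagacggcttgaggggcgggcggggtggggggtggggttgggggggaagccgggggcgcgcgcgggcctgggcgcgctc
Asah2: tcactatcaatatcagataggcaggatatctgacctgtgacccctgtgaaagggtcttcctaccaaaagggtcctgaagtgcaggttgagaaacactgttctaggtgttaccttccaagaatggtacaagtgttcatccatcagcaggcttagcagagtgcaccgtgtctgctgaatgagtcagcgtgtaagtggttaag
Enpp7: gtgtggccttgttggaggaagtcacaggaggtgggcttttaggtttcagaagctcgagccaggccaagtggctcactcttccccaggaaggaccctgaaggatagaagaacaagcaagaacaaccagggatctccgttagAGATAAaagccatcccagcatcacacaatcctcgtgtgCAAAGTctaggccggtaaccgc

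The Enpp7 window held a Gata-type match 110 bases before the start and an HNF4-type match 72 bases before it, and the Ugt8a window held an HNF4-type match on the opposite strand. No letters of the 4 motifs were found in the windows of Acer1, Sptssb and Asah2. Of 32817 windows of the same length and position over all genes, 8.79% held the Cdx-type, 8.42% the Gata-type, 5.33% the HNF1-type and 10.52% the HNF4-type letters, so a match is common and is given only as a description. The windows also differed in base composition, with G and C making up 75.5% of the bases for Ugt8a, 60.5% for Acer1, 53% for Enpp7, 49.5% for Sptssb and 47% for Asah2.

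The libraries held between 16749138 and 27903083 expected counts. Values are given as CPM, counts per unit of library size, the size being scaled with TMM factors, and differences as log2 fold changes with their standard error (SE) from edgeR. The p-values were adjusted over the 16558 tested genes by the Benjamini-Hochberg method, and a gene counted as called where the result was under 0.1. Of the 47 members, 46 passed the filter on low counts. Sptlc3, an alternative catalytic subunit of serine palmitoyltransferase, did not pass, with at most 0.0555 CPM in any library. Slc39a8 checked the genotype labels: it was at 8.39, 5.22 and 6.59 CPM in the ileal control, 4.35, 2.62 and 2.80 in the ileal KO, 20.8, 20.5 and 20.1 in the colonic control and 7.35, 11.5 and 7.93 in the colonic KO libraries. Every KO library lay below every control library of its tissue. The KO means were 3.26 against 6.73 CPM in ileum and 8.93 against 20.5 CPM in colon. These falls were smaller than those the study reports by qPCR in older mice, and the reason was not tested.

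Markers checked the tissue labels. The summed level of the ileal enterocyte markers was 27563 to 35753 CPM in the ileal and 1404 to 2450 CPM in the colonic libraries. Car1, a carbonic anhydrase of the colonic epithelium, was at 14884 to 27124 CPM in colon and 3.40 to 144 CPM in 5 ileal libraries, but at 2632 CPM in ileum KO replicate 2. Aqp8, a colonic water channel, was at 67.3 CPM in that library against 0 to 0.358 CPM in the other ileal ones. Other colonic epithelium markers did not set it apart to that degree: Slc26a3 was at 266 against 139 to 207 CPM, and Car4 at 129 CPM, within the 84.6 to 436 CPM of the others. The ileal differences of Acer1, Sptssb, Fa2h and Ugt8a, which are higher in colon, are therefore given with and without it. A pair of ileal libraries, control replicate 3 and KO replicate 1, held little muscle: their smooth muscle markers summed to 44.1 and 28.6 CPM, against 1890 to 2744 CPM in the other 4 ileal and 2633 to 4099 CPM in the colonic libraries.

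**Figure D1:**
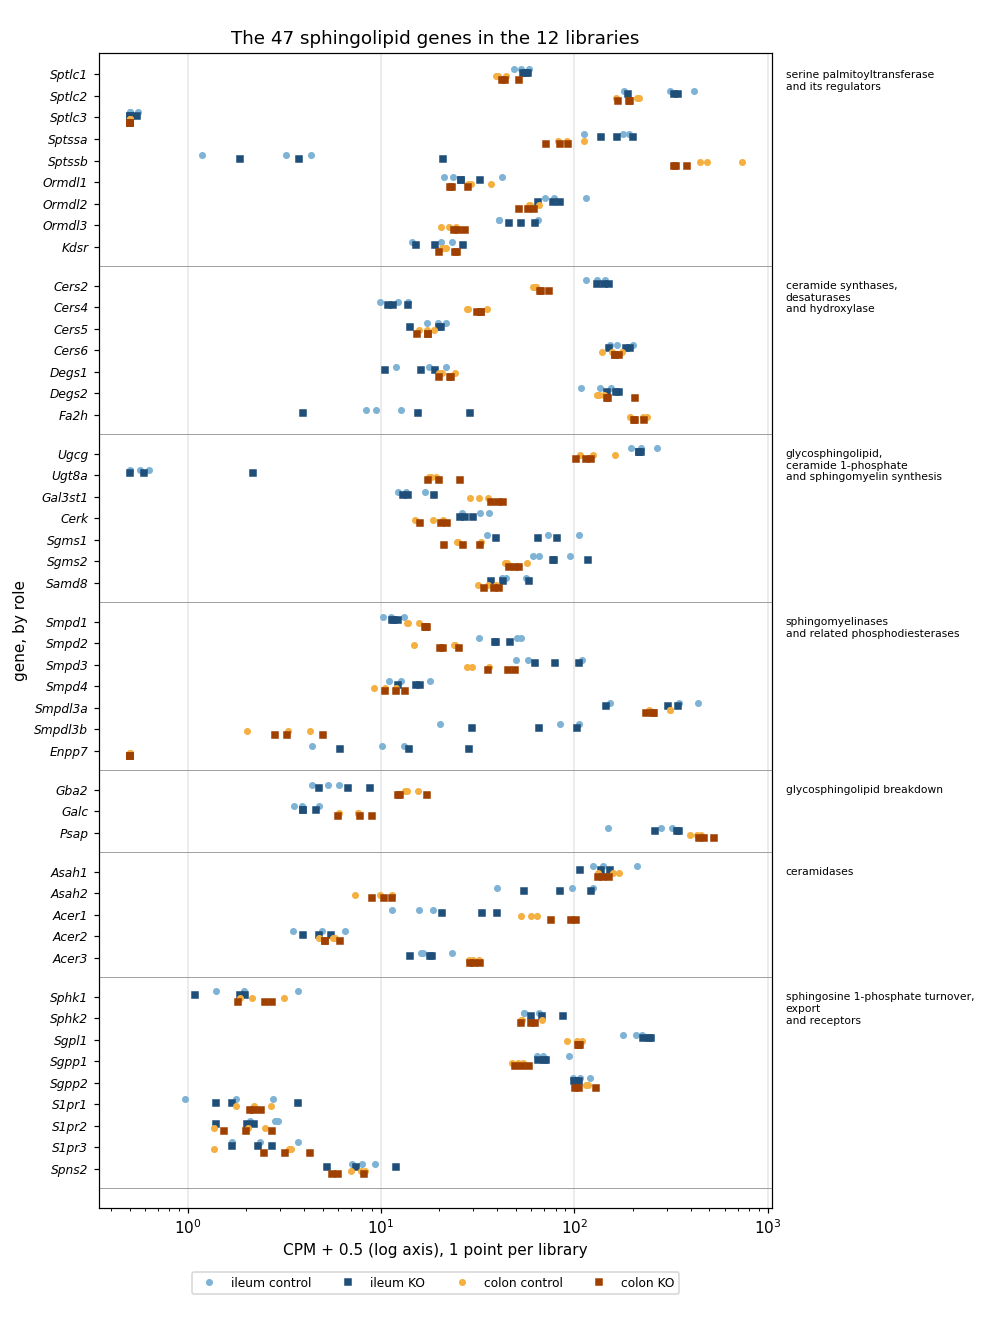
Level of each of the 47 sphingolipid genes (rows, grouped by role) as CPM plus 0.5 on a log axis, with 1 point for each of the 12 libraries (circles, control; squares, KO; blue, ileum; orange and brown, colon). Sptssb, Ugt8a and Fa2h stand apart as higher in colon and Enpp7, Smpdl3b and Asah2 as higher in ileum, while the KO and control points of a tissue overlap for most genes.

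The comparison of colon with ileum asks where along the intestine each step of the pathway is expressed. In control mice 27 of the 46 tested members were called, 58.7%, where 35.9% of all tested genes were. Of these, 10 were higher in colon, 21.7% of the members against 16.2% of all genes, and 17 were lower in colon, 37.0% against 19.6%. In KO mice 26 members were called, 56.5% against 37.1% of all genes, with 11 higher in colon (23.9% against 17.1%) and 15 lower (32.6% against 20%). The same direction was called in both genotypes for 25 members, 54.3% against 29.3% of all genes, 10 of them higher and 15 lower in colon. For 25 members the 6 ileal and the 6 colonic libraries did not overlap, 54.3% against 28.2% of all genes. The median log2 fold change of the members, colon minus ileum, was -0.09 in control and -0.11 in KO mice, against 0.02 and 0.01 over all tested genes. The directions depended in part on scaling: scaled by library size alone, all genes moved toward colon by a median of 0.22 in control and 0.27 in KO mice, and 12 members were higher and 11 lower in control and 14 higher and 11 lower in KO mice, and with upper-quartile factors, which moved it by 0.13 in KO mice, 12 were higher and 12 lower there.

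Markers of cell types also differed between the 2 tissues. The epithelium markers summed to 18935 to 24119 CPM in ileum and 9210 to 10666 CPM in colon, the Paneth cell markers to 3457 to 11701 against 13.7 to 370 CPM, the goblet cell markers to 13245 to 16972 against 9108 to 11686 CPM, and the T and B cell markers to 40.2 to 53.4 against 9.28 to 18.0 CPM. The enteric glia and neuron markers were higher in colon, at 15.9 to 31.9 against 0.715 to 13.4 CPM. Sums of the fibroblast (42.7 to 576 CPM in ileum, 280 to 584 CPM in colon), macrophage (36.1 to 101 and 29.5 to 68.3 CPM), plasma cell (540 to 2890 and 340 to 901 CPM) and endothelium markers (11.05 to 22.1 and 20.8 to 41.9 CPM) overlapped between the tissues. The part of these cells in the tissue differences below was not tested.

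**Figure D2:**
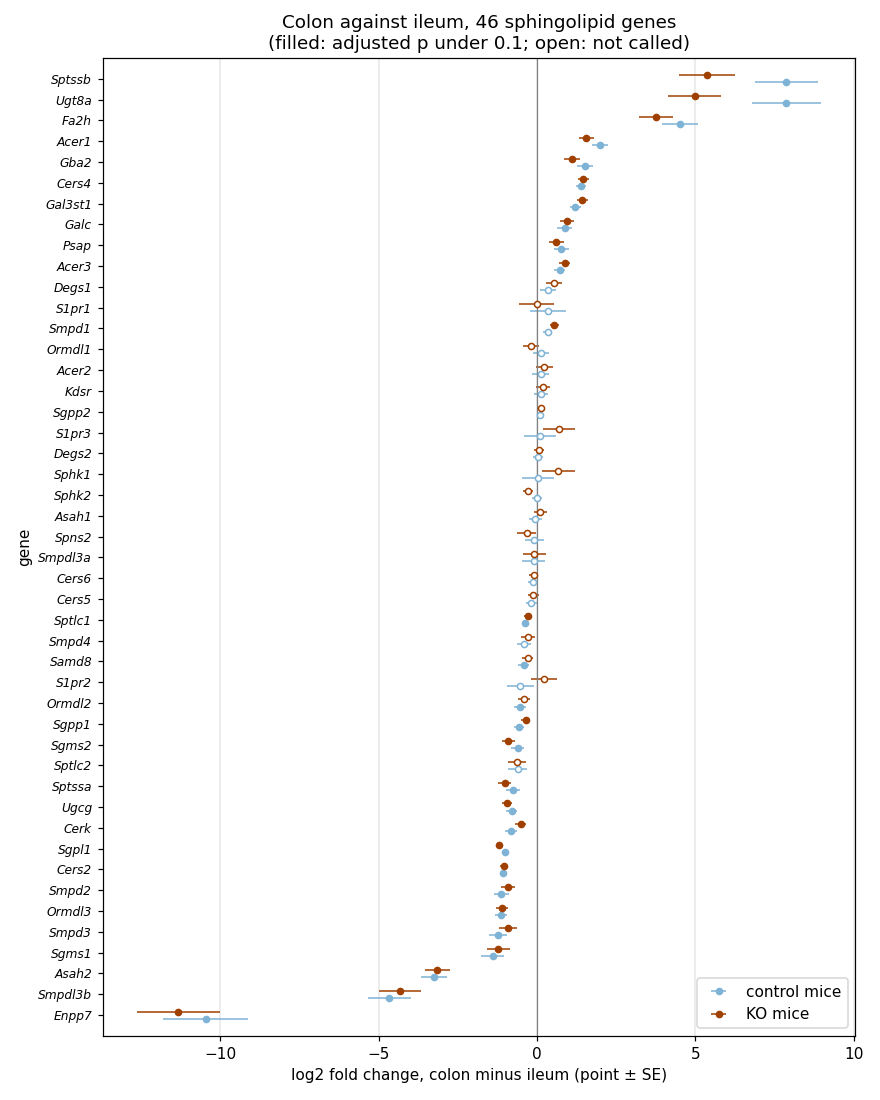
Log2 fold change, colon minus ileum (x axis, point ± SE from edgeR), of the 46 tested members in control mice (light blue) and KO mice (brown), filled where the adjusted p was under 0.1. The fitted value of Enpp7, which had no count in colon, depends on the prior count and is no bound.

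The small subunits of the first enzyme of synthesis differed between the tissues in opposite directions. Sptssb encodes a small subunit of serine palmitoyltransferase that raises its activity and changes the acyl-CoA it accepts. It was at 3.86, 2.72 and 0.680 CPM in the ileal control, 1.37, 20.3 and 3.27 in the ileal KO, 733, 483 and 448 in the colonic control and 337, 382 and 327 in the colonic KO libraries. The colonic libraries were the higher in every case, and among the ileal ones KO replicate 2 was above the rest. The difference was 7.88 (SE 0.996, adjusted p = 1.4e-04) in control mice and 5.37 (SE 0.87, adjusted p = 8.5e-04) in KO mice. Without ileum KO replicate 2 it was 7.21 (SE 0.70, adjusted p = 5.0e-05) in KO mice. Sptssa, the other small subunit, was at 179, 112 and 191 CPM in the ileal control, 201, 166 and 137 in the ileal KO, 111, 91.1 and 82.3 in the colonic control and 84.2, 92.2 and 71.1 in the colonic KO libraries, with no overlap between the tissues. It fell in colon, by the fitted values of -0.76 (SE 0.21, adjusted p = 0.021) in control mice and -1.02 (SE 0.22, adjusted p = 0.0045) in KO mice. Per kilobase of exon, the scale on which genes can be compared, Sptssb made up 0.296% to 9.26% of the summed level of both small subunits in the ileal libraries, or up to 1.98% without KO replicate 2, and 76.9% to 84.5% in the colonic ones. With 304 CPM per kb in colon control and 1.33 CPM per kb in ileum control, Sptssb had the highest level of the 47 members in colon and ranked 36 of 47 in ileum.

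The catalytic subunits changed less. Sptlc1 was called lower in colon in both genotypes, with -0.37 (SE 0.11, adjusted p = 0.03) in control mice and -0.29 (SE 0.11, adjusted p = 0.076) in KO mice, but the call was lost in control mice without colon control replicate 2 (adjusted p = 0.11) and in KO mice without any 1 of the 3 ileum KO libraries or without colon KO replicate 2 or 3 (adjusted p = 0.11 to 0.24). Sptlc2 was not called, with -0.62 (SE 0.29, adjusted p = 0.14) in control mice and -0.64 (SE 0.29, adjusted p = 0.12) in KO mice, and the muscle-poor pair was the lowest of the ileal libraries, at 179 and 190 CPM against 313 to 414 CPM. Of the ORMDL proteins, which restrain serine palmitoyltransferase, Ormdl3 was at 40.2, 64.7 and 40.1 CPM in the ileal control, 52.4, 45.6 and 62.01 in the ileal KO, 19.8, 23.9 and 22.1 in the colonic control and 26.5, 23.4 and 24.6 in the colonic KO libraries. All 6 ileal libraries lay above all 6 colonic ones, and the difference was -1.14 (SE 0.19, adjusted p = 0.0011) in control mice and -1.10 (SE 0.19, adjusted p = 0.0013) in KO mice. Ormdl2 was called in control mice alone, with -0.54 (SE 0.18, adjusted p = 0.042) in control mice and -0.41 (SE 0.18, adjusted p = 0.103) in KO mice, and a test of the difference between the genotypes gave 0.12 (SE 0.25, adjusted p = 1). The call in control mice was lost without ileum control replicate 1 or colon control replicate 2 (adjusted p = 0.14 and 0.12). Ormdl1 and Kdsr, the next reductase of the pathway, were not called, at 20.6 to 41.5 and 13.9 to 26.1 CPM over all libraries. Exons of Dnajc14 on the other strand cover 66.7% of the exon bases of Ormdl2, and since the sources used here do not say whether reads were counted by strand, its reads may hold some of that gene.

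Ceramide synthases set the length of the acyl chain. Cers2, the enzyme of very long chains, was at 114, 129.8 and 144 CPM in the ileal control, 150.4, 131 and 142 in the ileal KO, 62.7, 63.1 and 60.3 in the colonic control and 73.1, 65.6 and 66.4 in the colonic KO libraries, and the tissues did not overlap. Its level fell in colon, with -1.06 (SE 0.11, adjusted p = 3.9e-05) in control mice and -1.05 (SE 0.11, adjusted p = 4.3e-05) in KO mice. Cers4 went the other way and was at 9.38, 11.7 and 13.2 CPM in the ileal control, 11.03, 13.2 and 10.3 in the ileal KO, 35.02, 27.7 and 27.2 in the colonic control and 32.3, 32.3 and 30.9 in the colonic KO libraries. The difference was 1.39 (SE 0.16, adjusted p = 8.9e-05) in control mice and 1.46 (SE 0.16, adjusted p = 6.2e-05) in KO mice. Cers5 and Cers6 were not called, with levels of 13.6 to 21.2 and 139 to 200.5 CPM. Of the summed level per kb of the 4 ceramide synthase genes, Cers2 made up 54.8% to 65.3% in the ileal and 38.4% to 43.7% in the colonic libraries, Cers6 27.2% to 35.5% and 38.8% to 46.4%, and Cers4 1.28% to 1.71% and 5.19% to 7.08%. These shares, like those of the other enzyme groups outside the ceramidases and sphingomyelinases, were computed after the values had been seen and carry no test.

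Fa2h, which hydroxylates the fatty acid that goes into ceramide, was at 12.2, 8.89 and 7.82 CPM in the ileal control, 3.46, 28.5 and 14.97 in the ileal KO, 227, 194 and 238 in the colonic control and 229, 202 and 206 in the colonic KO libraries. No ileal library came near a colonic one, and KO replicate 2 was the highest in ileum. It rose in colon, with 4.51 (SE 0.56, adjusted p = 1.2e-04) in control mice and 3.75 (SE 0.54, adjusted p = 3.5e-04) in KO mice. Without that library the difference in KO mice was 4.51 (SE 0.52, adjusted p = 1.6e-04). Desaturation did not show such a step: Degs2, which adds a hydroxyl group to the sphingoid base as well as desaturating it, was at 108 to 171 CPM in ileum and 131 to 205 CPM in colon, and Degs1, the main desaturase, at 9.96 to 21.3 and 19.5 to 23.6 CPM. Neither was called between the tissues. Degs2 made up 85.8% to 94.5% of the summed level per kb of both desaturase genes over all libraries.

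From ceramide onward, both galactolipid genes among the members were higher in colon, while the glucosylceramide synthase gene and both sphingomyelin synthase genes were higher in ileum. Ugt8a, the galactosylceramide synthase, was at 0.0666, 0 and 0.127 CPM in the ileal control, 0, 1.68 and 0.0947 in the ileal KO, 18.7, 17.1 and 17.7 in the colonic control and 19.4, 25.2 and 17.02 in the colonic KO libraries. In ileum it had 4 counts in the 3 control libraries together, and 43 of the 45 counts in the KO libraries came from replicate 2. The fitted difference was 7.88 (SE 1.10, adjusted p = 2.8e-04) in control mice and 4.99 (SE 0.84, adjusted p = 0.001) in KO mice, values that rest on few ileal counts and on the prior count of the fit. Without ileum KO replicate 2 it was 8.45 (SE 0.64, adjusted p = 8.6e-06) in KO mice. Gal3st1, which sulfates galactosylceramide to sulfatide, was at 11.7, 13.00 and 16.4 CPM in the ileal control, 18.2, 13.2 and 12.6 in the ileal KO, 31.6, 28.3 and 35.3 in the colonic control and 42.4, 36.5 and 39.6 in the colonic KO libraries. The tissues did not overlap, and the difference was 1.21 (SE 0.18, adjusted p = 4.3e-04) in control mice and 1.43 (SE 0.18, adjusted p = 1.3e-04) in KO mice.

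Ugcg, the glucosylceramide synthase, was at 267, 221 and 195 CPM in the ileal control, 216, 219.8 and 215 in the ileal KO, 125, 106 and 162 in the colonic control and 114, 121 and 101 in the colonic KO libraries. Every ileal library was above every colonic one, and the fitted values were -0.80 (SE 0.17, adjusted p = 0.0043) in control mice and -0.95 (SE 0.17, adjusted p = 0.0014) in KO mice. Ugt8a made up at most 0.871% of the summed level per kb of both cerebroside synthase genes in any ileal library, or 0.0751% without KO replicate 2, and 11.1% to 19.3% in the colonic ones. Cerk, the ceramide kinase, was at 31.9, 35.8 and 25.8 CPM in the ileal control, 25.04, 29.4 and 26.7 in the ileal KO, 20.5, 18.1 and 14.5 in the colonic control and 21.4, 15.4 and 19.9 in the colonic KO libraries, without overlap, and differed by -0.82 (SE 0.18, adjusted p = 0.0058) in control mice and -0.52 (SE 0.18, adjusted p = 0.051) in KO mice. Leaving out ileum KO replicate 2, ileum KO replicate 3 or colon KO replicate 2 ended the call of Cerk in KO mice, with adjusted p of 0.102 to 0.19.

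Sphingomyelin synthase was higher in ileum in both of its genes. Sgms1, the synthase of the Golgi, was at 72.9, 105 and 34.97 CPM in the ileal control, 38.8, 64.7 and 80.7 in the ileal KO, 24.5, 24.2 and 32.2 in the colonic control and 20.7, 32.01 and 26.1 in the colonic KO libraries. Its ileal levels were spread widely, with the muscle-poor pair lowest, and still did not overlap with colon. The difference was -1.39 (SE 0.36, adjusted p = 0.015) in control mice and -1.23 (SE 0.36, adjusted p = 0.026) in KO mice. Sgms2, the synthase of the plasma membrane, was at 60.4, 65.4 and 93.9 CPM in the ileal control, 117, 78.05 and 76.9 in the ileal KO, 43.5, 44.4 and 56.3 in the colonic control and 48.8, 50.97 and 45.5 in the colonic KO libraries, with the muscle-poor pair highest. It differed by -0.61 (SE 0.20, adjusted p = 0.043) in control mice and -0.90 (SE 0.20, adjusted p = 0.0065) in KO mice. In control mice this call was lost without ileum control replicate 3, colon control replicate 1 or colon control replicate 2, at adjusted p of 0.13 to 0.15. Samd8, a related synthase of ceramide phosphoethanolamine, was called in control mice only, with -0.43 (SE 0.18, adjusted p = 0.099) in control mice and -0.29 (SE 0.18, adjusted p = 0.25) in KO mice, and its call was lost in 18 alternative fits, 9 of them without 1 library. The test of the difference between the genotypes gave 0.14 (SE 0.25, adjusted p = 1) for Samd8.

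Of the 7 sphingomyelinases and relatives, 4 were lower in colon in control and 4 in KO mice. Enpp7, the alkaline sphingomyelinase that digests dietary sphingomyelin, was at 12.6, 9.61 and 3.87 CPM in the ileal control, 28.02, 5.67 and 13.5 in the ileal KO, 0, 0 and 0 in the colonic control and 0, 0 and 0 in the colonic KO libraries. Not a count was found in colon. Against a floor of 3 counts over the group, its mean CPM in ileum was at least 178-fold higher in control and at least 339-fold higher in KO mice, and the adjusted p was 0.0010 and 6.4e-04. Smpdl3b, a phosphodiesterase of the plasma membrane related to the acid enzyme, was at 83.99, 105 and 19.7 CPM in the ileal control, 28.9, 64.8 and 103 in the ileal KO, 2.82, 1.54 and 3.81 in the colonic control and 2.78, 2.33 and 4.52 in the colonic KO libraries. The muscle-poor pair was lowest in ileum and yet above all colonic libraries. The difference was -4.67 (SE 0.68, adjusted p = 3.7e-04) in control mice and -4.34 (SE 0.66, adjusted p = 5.5e-04) in KO mice. Its relative Smpdl3a, which had the highest level per kb of all members in ileum, at 151 CPM per kb in ileum control, was at 145 to 434 CPM in ileum and 235 to 313 CPM in colon and was not called. Smpdl3b made up 11.8% to 23.8% of the summed level per kb of both in ileum and 0.646% to 1.80% in colon.

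Smpd2 and Smpd3, both neutral sphingomyelinases, fell in colon as well. Smpd3 was at 49.4, 56.9 and 109 CPM in the ileal control, 105, 62.1 and 78.9 in the ileal KO, 27.2, 35.6 and 28.9 in the colonic control and 49.05, 35.4 and 44.7 in the colonic KO libraries, with the muscle-poor pair at the top and no overlap between tissues. It differed by -1.24 (SE 0.29, adjusted p = 0.0082) in control mice and -0.93 (SE 0.29, adjusted p = 0.032) in KO mice, and the call in KO mice was lost without ileum KO replicate 1 and without colon KO replicate 2, at adjusted p of 0.11 and 0.12. In control mice it was -0.82 (adjusted p = 0.018) without ileum control replicate 3. Smpd2 was at 49.98, 52.7 and 31.6 CPM in the ileal control, 38.6, 38.5 and 46.2 in the ileal KO, 23.7, 23.5 and 14.3 in the colonic control and 24.7, 19.7 and 20.5 in the colonic KO libraries. Its difference was -1.13 (SE 0.23, adjusted p = 0.0035) in control mice and -0.93 (SE 0.23, adjusted p = 0.011) in KO mice, and exons of Mical1 on the other strand cover 20.3% of its exon bases. Smpd4, another neutral enzyme, was not called, at 8.70 to 17.5 CPM. Smpd1, the lysosomal acid sphingomyelinase, was at 9.77 to 12.6 CPM in ileum and 13.0 to 16.8 CPM in colon, and differed by 0.33 (SE 0.14, adjusted p = 0.11) in control mice and 0.55 (SE 0.14, adjusted p = 0.013) in KO mice. It was thus called in KO mice alone, but the test of the difference between the genotypes called no member.

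**Figure D3:**
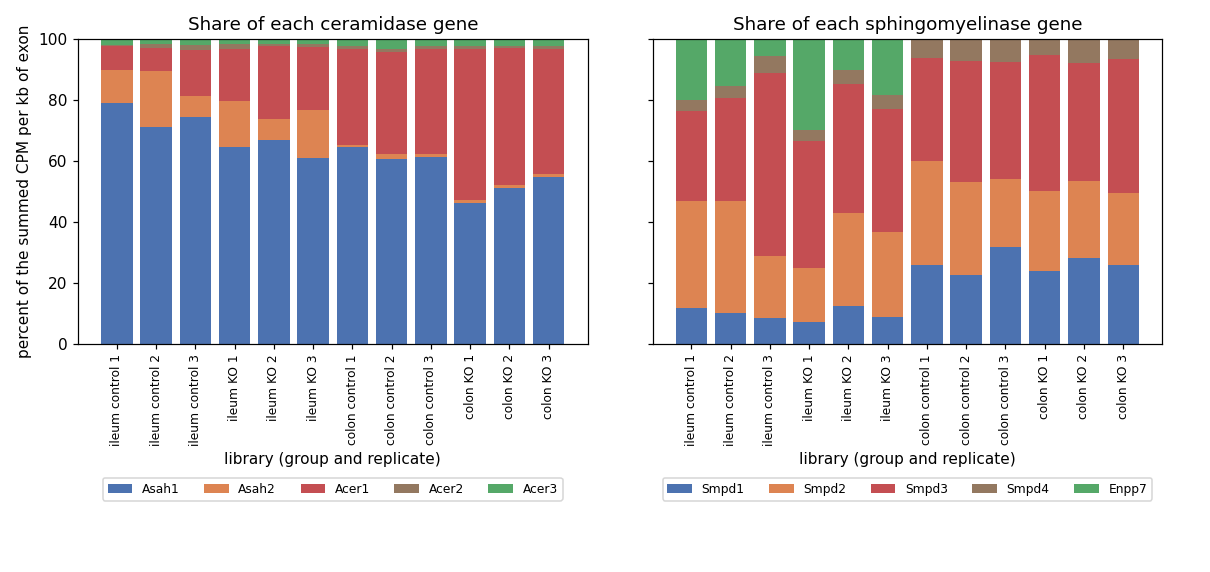
Share of each gene in the summed CPM per kb of exon of the 5 ceramidase genes (left) and of 5 sphingomyelinase genes (right), as stacked bars that add to 100% in each of the 12 libraries. Acer1 takes 7.70% to 23.9% of the ceramidase sum in the ileal and 31.4% to 49.6% in the colonic libraries, and Enpp7 is seen in the ileal bars alone.

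Shares within the sum of the 5 sphingomyelinase genes Smpd1 to Smpd4 and Enpp7 were tested by exchanging tissue within genotype, an exact two-sided permutation test over 400 arrangements whose smallest p is 0.005, adjusted over the 10 tests of the family. Smpd1 made up 10.1% ± 1.69 (SD, n = 3) in ileum control, 9.42% ± 2.79 in ileum KO, 26.7% ± 4.65 in colon control and 25.8% ± 2.04 in colon KO libraries, a difference of 16.5 percentage points (exact permutation p = 0.005, adjusted p = 0.017). Enpp7 made up 13.7% ± 7.36 in ileum control and 19.6% ± 9.83 in ileum KO libraries and 0 in colon, with the same p. Smpd4 gained 2.56 points in colon, again with that p. Without division by length the difference was -7.51 points for Enpp7, 11 for Smpd1 and 4.25 for Smpd4, each at the same adjusted p. The shares of Smpd2 and Smpd3 did not pass the test (adjusted p = 0.88 and 0.94 by exact permutation). Because shares add to 100%, a higher share of a gene can follow from a lower level of another. No sphingomyelinase share passed between the genotypes, with adjusted p of at least 0.55.

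Glycosphingolipid breakdown was higher in colon in all 3 of its members. Gba2, the glucosylceramidase outside the lysosome, was at 5.52, 3.89 and 4.84 CPM in the ileal control, 4.29, 8.25 and 6.21 in the ileal KO, 13.2, 12.8 and 15.02 in the colonic control and 11.97, 16.7 and 11.7 in the colonic KO libraries. It differed by 1.52 (SE 0.25, adjusted p = 9.9e-04) in control mice and 1.10 (SE 0.25, adjusted p = 0.0068) in KO mice. Galc, which removes galactose from galactosylceramide in the lysosome, was at 3.06, 3.39 and 4.29 CPM in the ileal control, 4.11, 3.44 and 3.46 in the ileal KO, 5.53, 7.10 and 7.06 in the colonic control and 7.26, 8.49 and 5.52 in the colonic KO libraries. The tissues did not overlap, and the difference was 0.87 (SE 0.23, adjusted p = 0.017) in control mice and 0.95 (SE 0.23, adjusted p = 0.01) in KO mice. Psap, the precursor of the saposins that present these lipids to lysosomal enzymes, was at 149, 280.0 and 319 CPM in the ileal control, 339, 259.9 and 347 in the ileal KO, 395, 451 and 431 in the colonic control and 527, 469.8 and 443 in the colonic KO libraries. It was called with 0.77 (SE 0.24, adjusted p = 0.032) in control mice and 0.61 (SE 0.24, adjusted p = 0.077) in KO mice. In control mice it was 0.50 (adjusted p = 0.042) without ileum control replicate 1, which had the lowest level, and in KO mice the call was lost in 7 of the 12 fits without 1 library, those that left out a KO library or colon control replicate 3, at adjusted p of 0.105 to 0.22.

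Ceramidases cut ceramide to sphingosine, and the 5 genes did not move together. Acer1, an alkaline ceramidase of the endoplasmic reticulum, was at 15.2, 10.8 and 18.1 CPM in the ileal control, 20.3, 39.2 and 32.8 in the ileal KO, 58.9, 52.6 and 63.5 in the colonic control and 101, 95.05 and 75.5 in the colonic KO libraries. Colon was the higher tissue in every library, and KO the higher genotype within each tissue. The tissue difference was 1.99 (SE 0.25, adjusted p = 1.3e-04) in control mice and 1.56 (SE 0.24, adjusted p = 6.2e-04) in KO mice, and without ileum KO replicate 2 it was 1.77 (SE 0.26, adjusted p = 8.5e-04) in KO mice. Exons of AC073683.1 on the other strand cover 14.1% of the exon bases of Acer1. Acer3, which prefers unsaturated long-chain ceramides, was at 22.9, 16.1 and 15.6 CPM in the ileal control, 13.5, 17.4 and 17.9 in the ileal KO, 29.3, 31.7 and 28.2 in the colonic control and 31.9, 29.6 and 28.3 in the colonic KO libraries. It rose in colon, with 0.71 (SE 0.17, adjusted p = 0.0087) in control mice and 0.88 (SE 0.17, adjusted p = 0.0025) in KO mice. Acer2, the ceramidase of the Golgi, was at 2.99, 4.44 and 5.99 CPM in the ileal control, 5.01, 3.44 and 4.26 in the ileal KO, 5.12, 5.28 and 4.28 in the colonic control and 4.62, 4.61 and 5.64 in the colonic KO libraries, and with 0.12 (SE 0.27, adjusted p = 0.76) in control mice and 0.23 (SE 0.27, adjusted p = 0.55) in KO mice it was not called.

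Asah2, the neutral ceramidase of the brush border, was at 97.03, 124 and 39.3 CPM in the ileal control, 83.3, 54.2 and 121 in the ileal KO, 6.86, 10.9 and 9.32 in the colonic control and 10.9, 9.84 and 8.51 in the colonic KO libraries. No colonic library reached an ileal one, and the difference was -3.26 (SE 0.41, adjusted p = 1.4e-04) in control mice and -3.14 (SE 0.41, adjusted p = 1.7e-04) in KO mice. Asah1, the acid ceramidase of the lysosome, was at 212, 139 and 124 CPM in the ileal control, 106, 152 and 136 in the ileal KO, 169, 133 and 158 in the colonic control and 131, 150.0 and 141 in the colonic KO libraries. The tissues overlapped, and the difference was -0.05 (SE 0.20, adjusted p = 0.88) in control mice and 0.10 (SE 0.20, adjusted p = 0.75) in KO mice. The ceramidases thus included a gene with 46.8 CPM per kb (Asah1), a gene with 7.46 CPM per kb (Asah2) and a gene with 6.06 CPM per kb (Acer1) in ileum control, and the same genes had 45.2, 0.777 and 24.0 CPM per kb in colon control.

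On the scale of shares, Acer1 made up 10.2% ± 4.22 (SD, n = 3) of the summed ceramidase level per kb in ileum control, 20.6% ± 3.34 in ileum KO, 33.1% ± 1.56 in colon control and 45.2% ± 4.37 in colon KO libraries. Its share was 23.7 percentage points higher in colon and 11.2 points higher in KO mice (exact permutation p = 0.005 for each, adjusted p = 0.0083 over the 10 tests of the family). The study chose Acer1 for its genotype difference in these same data, so the genotype test of its share is not independent of that choice. Asah1 made up 74.8% ± 4.08, 64.1% ± 2.90, 62.1% ± 2.03 and 50.6% ± 4.35 in the same order of groups. Its colon minus ileum difference was -13.1 points, and its KO minus control difference was -11.1 points, each with the same exact permutation p and adjusted p. The shares of a library have a fixed sum, so the tests of the Asah1 share are not independent of those of Acer1. A lower share of Asah1 can follow from a higher level of Acer1. The level of Asah1 itself differed by -0.20 (SE 0.14, unadjusted p = 0.18 by edgeR) between KO and control over both tissues. The exact permutation test of that level gave p = 0.25. In counts without division by length the Asah1 share was instead 2.78 points higher in colon (exact permutation, adjusted p = 0.61), while the tissue difference was 4.98 points for Acer3 and -27.2 for Asah2, both still past the test (exact permutation, adjusted p = 0.017). Asah2 took 11.9% ± 5.92 and 12.51% ± 4.87 in the ileal and 1.09% ± 0.348 and 1.02% ± 0.0830 in the colonic groups, control first, and passed for tissue (exact permutation, adjusted p = 0.0083) but not for genotype (adjusted p = 0.92). The share of Acer3 was 0.697 points higher in colon (exact permutation, adjusted p = 0.0083) and differed by -0.24 points between KO and control (adjusted p = 0.079), and that of Acer2 passed in neither (adjusted p = 0.57 and 0.71). Left out in turn, no library took the genotype difference of the Acer1 share outside 10.1 to 12.4 points. Over all alternatives this difference ranged from 7.79 to 13.2 points, and the tissue difference of the Acer1 share from 19.3 to 25 points.

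Of the 9 sphingosine 1-phosphate genes 2 were called between the tissues, both lower in colon. Sgpl1, the lyase that ends the pathway, was at 208, 222 and 177 CPM in the ileal control, 225, 242 and 249 in the ileal KO, 103, 90.8 and 109 in the colonic control and 106, 103 and 105 in the colonic KO libraries. It fell in colon without overlap, with -1.002 (SE 0.12, adjusted p = 9.7e-05) in control mice and -1.19 (SE 0.12, adjusted p = 2.8e-05) in KO mice. Sgpp1, a phosphatase that returns sphingosine 1-phosphate to sphingosine, was called with -0.57 (SE 0.15, adjusted p = 0.013) in control mice and -0.36 (SE 0.15, adjusted p = 0.086) in KO mice, and in KO mice this call was lost in 7 of the 12 fits without 1 library, those without any ileum KO library, colon KO replicate 2 or 3, or colon control replicate 1 or 2 (adjusted p = 0.11 to 0.23). Its relative Sgpp2 was at 97.4 to 129 CPM over all libraries and was not called. It made up 64.3% to 69.8% of the summed level per kb of the 2 phosphatases in ileum and 73.8% to 77.9% in colon.

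The kinases, the exporter and the receptors were not called in either comparison. Sphk2, the kinase found in the nucleus and mitochondria as well as the cytoplasm, was at 52.5 to 86.8 CPM and held 95.1% to 99.4% of the summed level per kb of both kinase genes, and Sphk1 was at 0.596 to 3.22 CPM. Exons of Dbp and Rpl18 on the other strand cover 21.9% of the exon bases of Sphk2. Spns2, the exporter, was at 4.73 to 11.4 CPM. The receptors S1pr1, S1pr2 and S1pr3 were at 0.466 to 3.22, 0.870 to 2.44 and 0.870 to 3.78 CPM, levels at which a difference the size of those above could go undetected, since the SE of their log2 fold changes lay between 0.41 for S1pr2 and 0.56 for S1pr1.

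By role, in control mice, serine palmitoyltransferase and its regulators had 1 member higher and 4 lower in colon of 8 tested, with a median log2 fold change of -0.46. Ceramide synthases, desaturases and the hydroxylase had 2 higher and 1 lower of 7 (median 0.03), the synthesis of glycosphingolipids, ceramide 1-phosphate and sphingomyelin 2 higher and 5 lower of 7 (median -0.61), and the sphingomyelinases and their relatives 4 lower of 7 (median -1.13, which stays the same with Enpp7 at its bound). Glycosphingolipid breakdown had 3 higher of 3 (median 0.87), the ceramidases 2 higher and 1 lower of 5 (median 0.12), and the sphingosine 1-phosphate genes 2 lower of 9 (median -0.01). Called members thus made up 62.5%, 42.9%, 100%, 57.1%, 100%, 60% and 22.2% of these roles in turn, where 35.9% of all genes were called, and the roles hold few genes each.

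A further 44 genes of the wider pathway were listed, of which 40 were tested. In control mice 5 of them were higher and 10 lower in colon, with a median of -0.19, and in KO mice 4 were higher and 12 lower. These shares of 37.5% and 40% were near the 35.9% and 37.1% of all genes. The largest differences toward colon in control mice were those of Gla, the lysosomal alpha-galactosidase (log2 fold change 0.98, SE 0.23, adjusted p = 0.0091), Plekha8, a glucosylceramide transfer protein (0.96, SE 0.17, adjusted p = 0.0012) and Glb1, a lysosomal beta-galactosidase (0.57, SE 0.22, adjusted p = 0.075). Toward ileum, Elovl1, which lengthens the acyl chains that Cers2 uses, differed by -2.42 (SE 0.19, adjusted p = 3.5e-06), and B4galt6, a lactosylceramide synthase, by -2.03 (SE 0.19, adjusted p = 1.3e-05). Elovl1 was at 267 to 382 CPM in ileum control, 245 to 385 in ileum KO, 56.2 to 62.4 in colon control and 58.6 to 69.8 in colon KO libraries. Elovl1 and Cers2 were thus both higher in ileum in all libraries of both genotypes.

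The second comparison asks whether the loss of Slc39a8 changed the pathway. No member was called between KO and control, over both tissues, in ileum, in colon or in the difference between the tissues, and neither was any of the 16558 tested genes, so that the background was 0%. The deleted gene Slc39a8 was itself not called, with -1.13 (SE 0.17, unadjusted p = 2.3e-05, adjusted p = 0.38) over both tissues. The lack of calls therefore does not show that the pathway was unchanged. Over both tissues 2 members had an unadjusted p under 0.05, 4.35% against 3.87% of all genes, in ileum 3 had (6.52% against 1.52%) and in colon 1 had (2.17% against 2.33%). The 3 in ileum were Acer1, Ugt8a and Sptssb. Without ileum KO replicate 2 they were 2, Acer1 and Sphk2, 4.35% against 2.25% of all genes. DESeq2, the tool of the study run here as an alternative, called 1 member over both tissues, Acer1, and 4 genes in all, 0.0143% of those it tested. Acer1 was among the 4 genes that the study named with this tool from the same RNA-seq. The median log2 fold change of the members was 0.05 over both tissues, 0.02 in ileum and 0.06 in colon. For 43 of the 46 the value over both tissues was within 0.5 of 0.

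Acer1 was the 1 member whose KO libraries lay on the same side of the control libraries without overlap in each tissue, 2.17% against 0.411% of all genes. In ileum 2 members did not overlap, Acer1 and Sgpl1, both higher in KO, 4.35% against 3.7% of all genes. In colon 6 did not overlap, 13.04% against 12.8% of all genes: Acer1, Cers2, Degs2, Gal3st1 and Smpd1 were higher and Sptssb was lower in KO. Over both tissues Acer1 differed by 0.84 (SE 0.17, unadjusted p = 3.5e-04, adjusted p = 1). The exact permutation test, with genotype exchanged within tissue, gave the smallest p the design allows, 0.005. It treats the 12 libraries as independent, and the labels do not say whether a mouse gave both its ileum and its colon. The study picked Acer1 from this same RNA-seq, so the genotype tests of Acer1 here reuse the data that selected it. The study also reports higher Acer1 in KO mice by qPCR on a separate set of RNA samples, in organoid monolayers and by immunoblot. By qPCR it reports higher Sphk1 in KO ileum and colon and unchanged Sphk2. Here Sphk1, at 0.596 to 3.22 CPM, differed by -0.67 (SE 0.51, unadjusted p = 0.22 by edgeR) in ileum. Over both tissues Sphk1 differed by -0.33 (SE 0.36, unadjusted p = 0.36 by edgeR) and Sphk2 by 0.16 (SE 0.12, unadjusted p = 0.20 by edgeR).

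Ileum KO replicate 2, which held Car1 and Aqp8 transcripts, was also the ileal library with the most Acer1, at 39.2 CPM or 52.6% of the colonic mean, where the others were at 14.5% to 44.0%. The same library held 4.50% of the colonic mean of Sptssb, against at most 0.855% in the others, 13.2% of Fa2h, against 1.60% to 6.93%, and 8.75% of Ugt8a, against at most 0.664%. For Car1 it held 13.2% and for Aqp8 73.5% of the colonic mean. The part of this in the KO minus control differences of ileum was not tested, and the values without the library bear on it. In ileum Acer1 differed by 1.06 (SE 0.24, unadjusted p = 0.0011, adjusted p = 1) with all libraries and by 0.85 (SE 0.25, unadjusted p = 0.0060, adjusted p = 1) without it. Over both tissues it differed by 0.73 (SE 0.16, adjusted p = 0.94) without it.

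**Figure D4:**
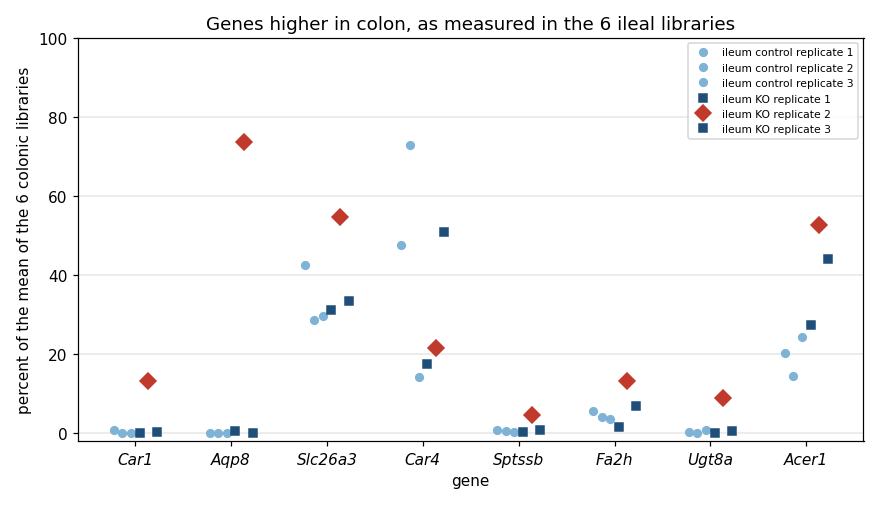
Level in each of the 6 ileal libraries of 4 colonic epithelium markers and of 4 members higher in colon, as a percent of the mean of the 6 colonic libraries (circles, control; squares, KO; red diamond, ileum KO replicate 2). The red diamond is highest for every gene but Car4, most clearly for Car1 at 13.2% and Aqp8 at 73.5%, while Acer1 is also above the control libraries in the other KO libraries.

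Beside Acer1, the members with the smallest unadjusted p in ileum were Ugt8a, Sptssb and Sgpl1. Ugt8a differed by 3.09 (SE 1.26, unadjusted p = 0.031, adjusted p = 1), and without ileum KO replicate 2 by -0.38 (SE 1.008, adjusted p = 1), so the sign of its difference rested on that library. Sptssb differed by 1.84 (SE 0.82, unadjusted p = 0.045, adjusted p = 1), and without the library by 0.0019 (SE 0.54). Fa2h, which has the same pattern, was at 0.71 (SE 0.50) with and -0.05 (SE 0.44) without it. Sgpl1 was at 208, 222 and 177 CPM in the control and 225, 242 and 249 CPM in the KO libraries of ileum and differed by 0.24 (SE 0.12, unadjusted p = 0.07, adjusted p = 1), or by 0.15 (adjusted p = 0.66) without control replicate 3.

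In colon, Acer1 differed by 0.63 (SE 0.24, unadjusted p = 0.021, adjusted p = 1), followed by Degs2, Smpd1 and Gal3st1. Degs2 was at 134, 141 and 131 CPM in control and 205, 147 and 149 CPM in KO libraries, with a difference of 0.31 (SE 0.16, unadjusted p = 0.084, adjusted p = 1), and KO replicate 1 was well above the rest. Without that library the difference of Degs2 was 0.11 (SE 0.16, adjusted p = 1). Smpd1 was at 13.2, 13.0 and 15.3 CPM in control and 16.8, 16.3 and 16.6 CPM in KO libraries, with 0.26 (SE 0.14, unadjusted p = 0.096, adjusted p = 1). Gal3st1 was at 31.6, 28.3 and 35.3 CPM in control and 42.4, 36.5 and 39.6 CPM in KO libraries, with 0.32 (SE 0.17, unadjusted p = 0.096, adjusted p = 1). Sptssb was lower in every colonic KO library, at 337, 382 and 327 against 733, 483 and 448 CPM. With 3 libraries against 3, an exact permutation test within a tissue cannot go below p = 0.1.

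Over both tissues the members next to Acer1 were Degs2, with 0.29 (SE 0.11, unadjusted p = 0.019, adjusted p = 1), Cers2, with 0.13 (SE 0.07, unadjusted p = 0.1, adjusted p = 1), and Sgpl1, with 0.15 (SE 0.08, unadjusted p = 0.11, adjusted p = 1). The genotype effect did not pass for any member when colon was compared with ileum. The smallest p was that of Sptssb, with -2.51 (SE 1.09, unadjusted p = 0.041, adjusted p = 1). Without ileum KO replicate 2 it was -0.67 (SE 0.72, unadjusted p = 0.37, adjusted p = 1). The value of Acer1 was -0.43 (SE 0.34, unadjusted p = 0.23, adjusted p = 1), and -0.22 (SE 0.33, adjusted p = 1) without that library. Of the other ceramidases, none had KO libraries apart from control libraries in either tissue.

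**Figure D5:**
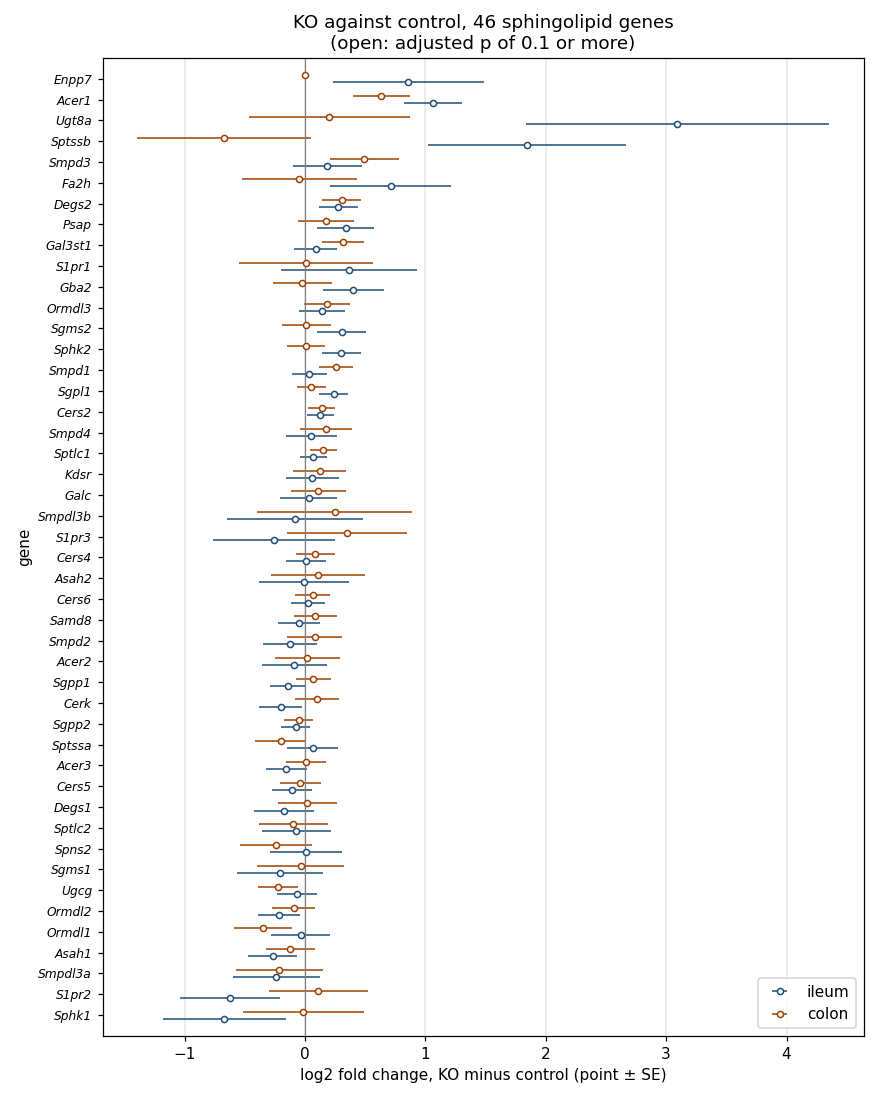
Log2 fold change, KO minus control (x axis, point ± SE from edgeR), of the 46 tested members in ileum (dark blue) and colon (brown), ordered by the value over both tissues. No member had an adjusted p under 0.1, and the long bars of Ugt8a and Sptssb in ileum belong to genes with few ileal counts outside KO replicate 2.

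Within ileum, many members differed between the muscle-poor pair, 1 library of each genotype, and the rest, about as often as other genes did. Both libraries lay outside the range of the other 4 ileal libraries, on the same side, for 25 members, 54.3% against 50.4% of all genes. Of these, 11 were higher in the pair and 14 lower. Smpdl3a was at 152 and 145 against 304 to 434 CPM, Smpdl3b at 19.7 and 28.9 against 64.8 to 105 CPM, Sgms1 at 35.0 and 38.8 against 64.7 to 105 CPM, and Asah1 at 124 and 106 against 136 to 212 CPM. In the other direction Smpd3 was at 109 and 105 against 49.4 to 78.9 CPM, Sgms2 at 93.9 and 117 against 60.4 to 78.0 CPM, and S1pr1 at 2.25 and 3.22 against 0.466 to 1.28 CPM. The pair also held less of the fibroblast markers (42.7 and 43.9 against 304 to 576 CPM) and more of the Paneth cell markers (9139 and 11701 against 3457 to 4836 CPM). These differences lie within the groups and widen their spread. Without the pair, edgeR called Acer1 between KO and control in ileum, with 1.46 (SE 0.20, adjusted p = 0.082), beside 0.0178% of all genes. For Acer1 the pair held the highest ileal control and the lowest ileal KO value, 18.1 and 20.3 CPM. Leaving the pair out thus had to widen the Acer1 difference, which was 1.06 with all libraries. DESeq2 without the pair called Acer1 and Fa2h in ileum, beside 0.149% of all genes, and Acer1 and Smpd3 over both tissues, beside 1.71%. Ileum KO replicate 2 is then 1 of 2 ileal KO libraries, and a fit without all 3 was not run.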

How the data were processed

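RNA-seq of ileal and colonic mucosa was analysed in 12 libraries, 3 for each of 4 groups taken from the sample labels. The members and gene lists were chosen with earlier results of these data known. The authors aligned reads to mm10 with STAR, kept unique reads and removed duplicates with UMI-tools. They deposited expected counts per gene, estimates that are not normalized and need not be whole (93.7% of the values were). The study names FeatureCounts for counting. Whether it made these estimates, and whether reads were counted by strand, the sources read here do not say. The table also lists 92 spike-ins with 0 counts in all libraries, which were left out. Symbols, exon lengths and coordinates came from GENCODE M21, in which 4 members matched under another version of their identifier, and promoter windows came from RefSeq (GRCm38.p6).

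Counts were rounded, filtered with filterByExpr and fitted in edgeR 4.0.16 (R 4.3.3) by glmQLFit and glmQLFTest with TMM factors: a model of the 4 groups, or tissue plus genotype for genotype over both tissues. Adjusted p-values are edgeR's, over all 16558 genes, unless named otherwise, and the threshold of 0.1 is that of the study, which combined both tissues in DESeq2 (here version 1.42.0, an alternative). SE is the size of the log2 fold change over the square root of F. Permutation tests are exact and two-sided, on log2 of CPM plus 0.5 or on shares. The study's methods give 3 mice a group. Whether both tissues came from the same mice is not said. The fit was tested on simulated data. Members were named in full by size of tissue difference, until 20 a comparison, and by p for genotype, 3 a comparison beside Acer1. The ceramidases were always named. Totals were 16749138 to 27903083 counts, and floors cover counting error only. Alternatives changed tool, scaling, filter, rounding, threshold, gene length, block and libraries. Some results on genes outside the members are not reported here.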

Additional observations from a re-analysis of the deposited data

How the results depend on the processing

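The tissue counts stayed within 1.5 times their value under every alternative, at 23 to 29 members in control and 21 to 29 in KO mice, which is also the range over the fits without 1 library. In both, 21 members were called in every alternative fit that gave them an adjusted p. The others were Sptlc1, Sptssa, Ormdl2, Sgms2, Samd8 and Sgpp1 in control and Sptlc1, Cerk, Smpd3, Psap and Sgpp1 in KO mice. DESeq2 gave Sptssb no adjusted p. Whether replicate numbers pair the libraries by mouse could not be settled. Same-numbered libraries had correlated deviations over 0.1 in 5 of 18 pairs (-0.69 to 0.40). Most of the 18 pairs cross genotypes and cannot share a mouse, as do both extremes, ileum control against ileum KO. Of the 5 pairs over 0.1, ileum control against ileum KO replicate 2 (0.40) and ileum KO against colon control replicate 1 (0.16) cross genotypes. The rest of the 5 join ileum and colon of the same genotype and could share a mouse. Between ileum and colon of the same genotype the correlations were 0.19, 0.05 and 0.25 in KO mice. In control mice they were -0.05, 0.16 and -0.08. With the replicate number as a block, 26 members were called in control and 24 in KO mice and none for genotype, and Acer1 differed by 0.846 between KO and control. For genotype over both tissues DESeq2 called 1 member (Acer1, 0.845), and DESeq2 without the muscle-poor pair, chosen after seeing the data, called 2 (Acer1, 0.957, and Smpd3) of 161 genes called in all. In ileum edgeR without that pair called 1 (Acer1) of 3 genes and DESeq2 without it 2 (Acer1 and Fa2h) of 26, while fits without 1 library called 0 members. For Acer1 the pair held the ileal control and KO values nearest to each other, and the cause of these changes was otherwise not tested. Without 1 library the Acer1 difference over both tissues ranged from 0.728 to 0.922.

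Differences that were not called changed sign in places. Asah1, colon minus ileum, was 0.0463 with upper-quartile factors, 0.191 with library size only and -0.216 to 0.213 with libraries left out in control mice. In KO mice it was -0.0531 with DESeq2 without the pair and -0.0389 to 0.216 with libraries left out. Acer2 in control mice ranged from -0.0967 to 0.375, and Ugt8a, KO minus control in ileum, from -0.379 without ileum KO replicate 2 to 4.68 in edgeR and 4.87 in DESeq2 without the pair. The tissue difference of the Asah1 share was 2.78 points, and that of Acer2 0.176, without division by length. With libraries left out, tissue differences of shares ranged from -0.302 to 0.0951 points for Acer2, -5.44 to 0.699 for Smpd2 and -4.36 to 3.33 for Smpd3, and Smpd2 passed the test without the pair (exact permutation, adjusted p = 0.067).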
